A study of Homo sapiens with 12 samples.

Results

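Aminoacyl-tRNA synthetases are the enzymes that join each amino acid to its matching tRNA. The table of expression values listed 13881 genes, and 36 of them were synthetase genes, taken by symbol. Of these, 20 encoded cytosolic enzymes and 16 encoded mitochondrial enzymes, whose symbols end in 2. RNA-seq had been carried out on 2 cultured human lines of acute myeloid leukaemia. Both KG-1 and MOLM-14 were kept for 96 h with DMSO, the solvent control, or with ASLAN003, an inhibitor of dihydroorotate dehydrogenase, the mitochondrial enzyme of pyrimidine synthesis. The 4 groups had 3 libraries each, 12 in all. The ASLAN003 dose was not given in the sources used here. All groups shared the same medium with fetal bovine serum, and both lines are established cultures, so the comparison holds no normal blood cell. Nothing in the labels said whether replicates were separate cultures, and the p-values below therefore measure the spread between these libraries only.

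Charging is done by separate enzyme sets in the cytosol and in the mitochondrion, all encoded in the nucleus, and most amino acids have a gene for each compartment. GARS and KARS are exceptions, since each makes the cytosolic and the mitochondrial enzyme from a single gene. In the cytosol, EPRS and the enzymes for aspartate, glutamine, isoleucine, leucine, lysine, methionine and arginine assemble into the multisynthetase complex on the scaffold proteins AIMP1, AIMP2 and EEF1E1. Many cytosolic synthetase genes are known targets of ATF4, the transcription factor of the amino acid and integrated stress responses. Mitochondrial synthetases serve the translation of the proteins encoded in mitochondrial DNA.

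Expression was given as FPKM (fragments counted relative to transcript length and library size), which allows levels of different genes to be compared per length. Sequencing depth, estimated from the steps between low FPKM values, lay between 17800000 and 18700000 fragments per library. The replicates of MOLM-14 treated with ASLAN003 were the most variable. The median SD over all tested genes was 0.271 there on the log2 scale, against 0.129 to 0.177 in the other 3 groups, and for the 36 synthetase genes it was 0.224 against 0.0870 to 0.104. MOLM-14 ASLAN003 replicate 1 stood apart from replicates 2 and 3 on the second principal component (36.2 against 14.6 and 9.37). The leukocyte and myeloid genes PTPRC, CD33, SPI1, FLT3 and MPO were detected in every library. All but CD33 had different mean levels in the treatments. In KG-1 the means in DMSO and after ASLAN003 were 73.1 and 176 FPKM for PTPRC, 123 and 244 FPKM for SPI1, 18.5 and 34.4 FPKM for FLT3, and 160.3 and 37.9 FPKM for MPO, a gene of granulocyte precursors. In MOLM-14 they were 57.5 and 82.3, 115 and 183, 101 and 117, and 20.8 and 4.83 FPKM. The libraries of the treatments did not overlap for these genes, except for PTPRC in MOLM-14. CD33 was at 26.5 and 26.2 FPKM in KG-1 and 40.4 and 43.5 FPKM in MOLM-14. The part of these differences in the synthetase results was not tested. CD34, a progenitor marker, was between 0.00 and 0.17 FPKM in all 12. KIT, also on the list of myeloid markers, was at 0.03 to 0.39 FPKM in KG-1 and 0.77 to 4.07 FPKM in MOLM-14. Among markers of other cell types, EPCAM did not exceed 2.49 FPKM in KG-1 and was listed at 0 in MOLM-14. COL1A1 did not exceed 10.7 FPKM, and KRT18 reached 31.8 FPKM in MOLM-14 DMSO. In bulk RNA, fewer cells of a type and less RNA per cell cannot be told apart.

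Promoters are shown for the synthetase genes that fell after treatment and carry a match to the recognition letters of factors linked to amino acid supply or growth. Of the 36 genes, 30 had promoters in the RefSeq table (GRCh38.p14), and the 250 bases before each annotated start were searched on both strands. The letters TGATGNAA, the core of the element bound by ATF4 with C/EBP partners, occurred in 4 of 30 genes (13.3%), namely AARS, GARS, IARS and YARS2. Over all 27305 genes with a promoter in the table the share was 3.89%. CACGTG, the E-box bound by MYC family proteins, occurred in 3 of 30 genes (10%; IARS, EARS2 and MARS2), against 7.73% of all genes. TGATGNAA was present in 2 of the 13 searchable genes that fell in KG-1 and in 2 of the 17 that were not called there. CACGTG was present in 2 of those 13 and in 1 of those 17. A match describes the letters only, and binding was not measured. The capitals mark the match in each sequence, which runs 5′ to 3′ on the strand of the gene. The GARS site is on the plus strand at chr7:30594834-30594863, within an exon of a transcript that begins at another GARS start. The IARS site is on the minus strand at chr9:92293698-92293727. It lies before the RefSeq start used here but within the IARS gene as positioned in the other annotation (92210207 to 92293756). The stretch before the IARS start is at chr9:92293757-92293947 on the minus strand, and that before MARS2 is at chr2:197705119-197705368 on the plus strand. In the first and second sequences the letters are on the reverse strand and so read as their reverse complement.
GARS, TGATGNAA site: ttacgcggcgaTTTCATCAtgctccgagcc
IARS, TGATGNAA site: cccgcattttcagcgcgTTGCATCAcctcc
IARS, stretch with CACGTG: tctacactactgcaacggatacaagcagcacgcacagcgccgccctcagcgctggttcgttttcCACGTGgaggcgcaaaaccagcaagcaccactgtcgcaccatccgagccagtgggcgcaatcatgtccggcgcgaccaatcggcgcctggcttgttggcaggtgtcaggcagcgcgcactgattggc
MARS2, stretch with CACGTG: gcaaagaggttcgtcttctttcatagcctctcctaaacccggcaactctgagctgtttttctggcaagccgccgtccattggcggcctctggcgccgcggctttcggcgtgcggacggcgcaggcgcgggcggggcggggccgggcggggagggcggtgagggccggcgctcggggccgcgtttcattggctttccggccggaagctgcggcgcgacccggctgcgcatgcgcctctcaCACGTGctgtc

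Cytosolic synthetase transcripts were more abundant than mitochondrial ones in every group. In KG-1 DMSO the median over the 20 cytosolic genes was 87.1 ± 7.35 FPKM (SD, n = 3 libraries) and that over the 16 mitochondrial genes 21.0 ± 0.690 FPKM. In MOLM-14 DMSO the medians were 93.5 ± 5.46 and 21.8 ± 0.502 FPKM. QARS, the glutaminyl enzyme, had the highest mean level of the 36 in all 4 groups, with FARSA, the catalytic subunit of the phenylalanyl enzyme, the next in KG-1 DMSO. CARS was the lowest cytosolic gene in KG-1 DMSO at 16.7 ± 2.38 FPKM. CARS2 and IARS2, the mitochondrial cysteinyl and isoleucyl enzymes, stood far above the other mitochondrial genes in KG-1. In KG-1 DMSO their levels were 97.3 ± 4.0 and 102 ± 2.81 FPKM, which do not differ beyond their spread, and the next was RARS2 at 36.9 ± 1.97 FPKM. In MOLM-14 DMSO IARS2 was at 67.7 ± 3.62, CARS2 at 57.9 ± 4.41 and SARS2 at 46.9 ± 14.7 FPKM, and after ASLAN003 the mean of SARS2 was above that of CARS2 (51.6 ± 5.01 and 49.5 ± 4.59 FPKM). The lowest were WARS2 and PARS2, at 4.56 ± 0.582 and 7.12 ± 0.676 FPKM in KG-1 DMSO. All 36 genes passed the filter for testing (1 FPKM or more in at least 3 libraries).

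In KG-1, ASLAN003 lowered 17 of the 36 synthetase genes and raised none that passed the test. Both compartments took part, with 9 of 20 cytosolic genes (45.0%) and 8 of 16 mitochondrial genes (50%) lower. Over all 13353 tested genes, 14.3% were called lower and 19.4% higher, 33.7% in all (limma, adjusted p below 0.05). The median log2 change was -0.36 over the cytosolic genes and -0.40 over the mitochondrial genes, against 0.05 over all tested genes. The difference between the compartments was not tested. At unadjusted p below 0.05, 11 cytosolic and 9 mitochondrial genes passed, as did 5804 of all 13353 tested genes. The libraries of the treatments did not overlap, with ASLAN003 lower, in 11 of 20 and 9 of 16 genes, against 24.5% of all genes. The only members whose libraries were all higher after ASLAN003 were SARS and SARS2 (31.4% of all genes), and neither passed the test.

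Within the multisynthetase complex, 4 of 8 enzyme genes fell in KG-1: EPRS, KARS, LARS and IARS. EPRS (ENSG00000136628.17, chromosome 1, 219968601 to 220046658, GRCh38), which joins the glutamyl and prolyl enzymes in a single protein, showed the largest change of all 36 genes. Its FPKM was 101, 106 and 98.5 in KG-1 DMSO and 53.8, 51.8 and 45.9 after ASLAN003. The 3 treated libraries lay close together at 0.499 of the control level on the fitted scale, a log2 change of -1.0 ± 0.17 (SE, adjusted p = 0.000515). KARS, the lysyl enzyme of both compartments, was at 141, 139.8 and 124 FPKM in DMSO and at 95.5, 92.3 and 85.3 FPKM after treatment. All treated libraries were below all controls, and the log2 change was -0.56 ± 0.11 (adjusted p = 0.00226). LARS and IARS changed by -0.42 and -0.41 on the log2 scale (adjusted p = 0.0188 and 0.0418). Of the other 4 enzymes of the complex, RARS had a change of similar size that did not pass (-0.42 ± 0.21, adjusted p = 0.143). All treated KG-1 libraries of RARS were nonetheless below all controls. RARS was called lower in 3 of 23 alternative settings (weighted libraries, without MOLM-14 ASLAN003 replicate 1, and each line fitted alone). QARS, DARS and MARS had fitted log2 values between -0.26 and 0.00107.

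Outside the complex, FARSB, GARS, VARS, FARSA and YARS fell in KG-1. FARSB and FARSA encode the 2 subunits of the phenylalanyl enzyme. FARSB (ENSG00000116120.9, chromosome 2, 222570536 to 222656337) was at 30.4, 27.3 and 27.0 FPKM in DMSO and 17.3, 17.9 and 18.6 FPKM after ASLAN003. The groups did not overlap, and the log2 change was -0.62 ± 0.21 (adjusted p = 0.0370). FARSA went from 196, 197 and 165 FPKM to 149, 123 and 142 FPKM, so both subunits were lower. GARS, the glycyl enzyme of both compartments, was at 84.7, 89.1 and 107 FPKM in DMSO and 65.3, 70.1 and 62.6 FPKM after treatment. The lowest control library was above the highest treated library, with a log2 change of -0.49 ± 0.14 (adjusted p = 0.0152). VARS, the valyl enzyme, FARSA and YARS, the tyrosyl enzyme, changed by -0.46, -0.43 and -0.43 on the log2 scale (adjusted p = 0.00916, 0.00781 and 0.0118). The 4 cytosolic genes with the highest fitted values in KG-1 were WARS, CARS, SARS and NARS, between 0.04 and 0.25, and none passed the test.

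The 8 mitochondrial genes that fell in KG-1 were NARS2, AARS2, CARS2, PARS2, FARS2, TARS2, MARS2 and IARS2. NARS2, the asparaginyl enzyme (ENSG00000137513.9, chromosome 11, 78435961 to 78574874), was at 17.0, 14.4 and 14.1 FPKM in DMSO and 8.18, 8.64 and 9.0 FPKM after ASLAN003. Its treated libraries all lay below 10 FPKM, and the log2 change was -0.75 ± 0.17 (adjusted p = 0.00452). AARS2, the alanyl enzyme (ENSG00000124608.4, chromosome 6, 44299654 to 44313326), went from 24.8, 24.7 and 22.6 FPKM to 15.3, 14.2 and 13.3 FPKM. The groups were well apart, with a log2 change of -0.71 ± 0.11 (adjusted p = 0.000326). CARS2 (ENSG00000134905.16, chromosome 13, 110641412 to 110713603) went from 96.6, 93.7 and 102 FPKM to 60.2, 62.0 and 65.0 FPKM, a log2 change of -0.63 ± 0.10 (adjusted p = 0.000293). This was a high-abundance transcript in KG-1, and every treated library was below every control. PARS2, the prolyl enzyme, was at 7.90, 6.72 and 6.74 FPKM in DMSO and 4.02, 4.79 and 4.44 FPKM after treatment. It was the least abundant of the genes that fell, with a log2 change of -0.58 ± 0.16 (adjusted p = 0.0135). TARS2, FARS2, MARS2 and IARS2, the threonyl, phenylalanyl, methionyl and isoleucyl enzymes, changed by -0.47, -0.47, -0.41 and -0.38. The other 8 mitochondrial genes had fitted log2 values from -0.41 for EARS2 (adjusted p = 0.0774) to 0.36 for SARS2 (adjusted p = 0.182).

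**Figure D1:**
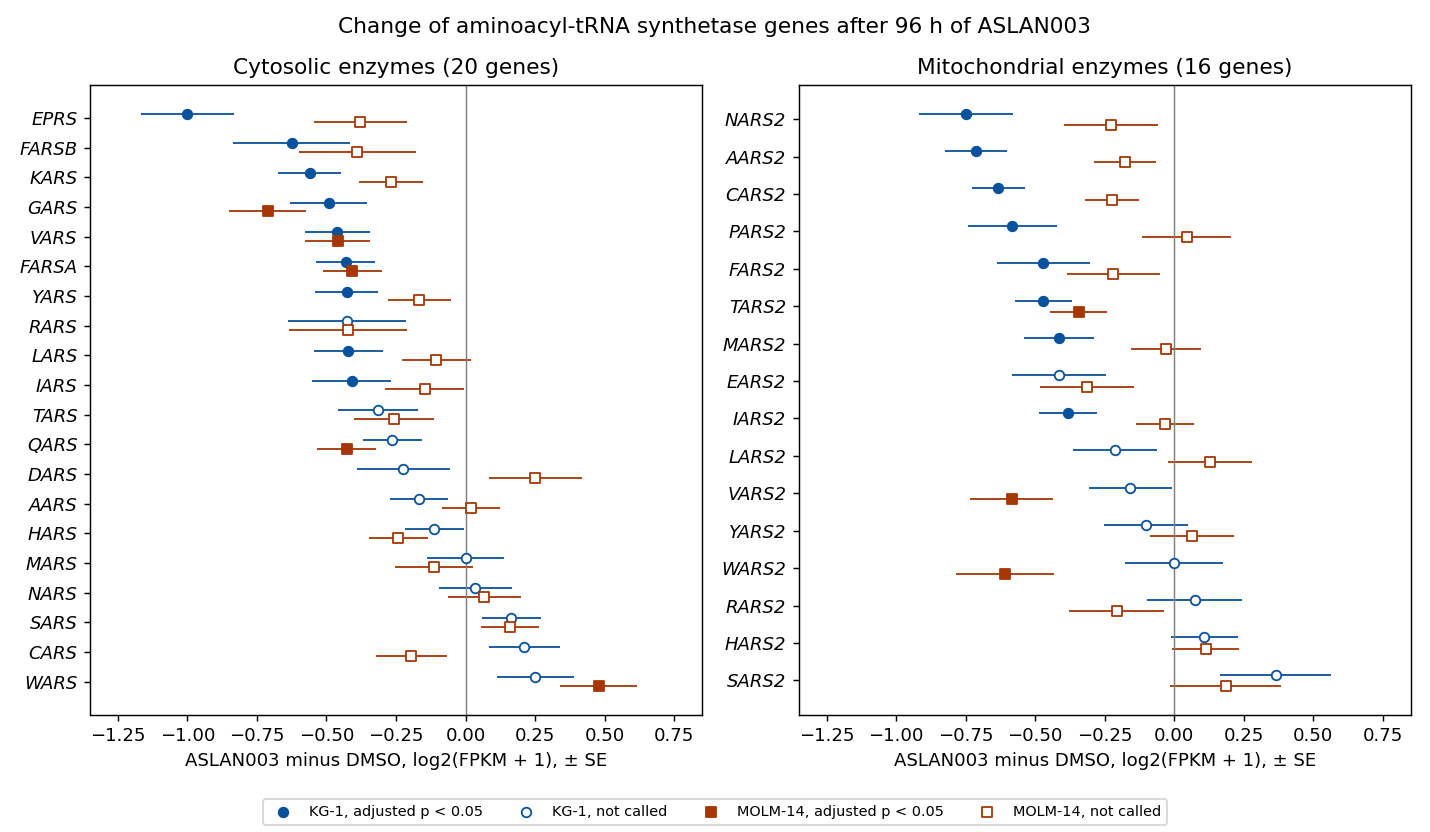
Fitted change after ASLAN003 on the log2(FPKM + 1) scale for each cytosolic (left) and mitochondrial (right) synthetase gene, with bars of 1 SE; circles are KG-1, squares MOLM-14, and filled symbols passed adjusted p below 0.05. The filled circles lie left of 0 in both panels (9 cytosolic and 8 mitochondrial genes), and WARS in MOLM-14 is the only filled symbol to the right.

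Of the 17 KG-1 calls, 7 were kept under every alternative tried: EPRS, KARS, VARS, NARS2, AARS2, CARS2 and TARS2. Among the 19 genes not called, 8 gained a call in some alternative. AARS, QARS, RARS, TARS and EARS2 were then lower, and CARS, SARS and SARS2 higher. For QARS and RARS these alternatives included the fits without MOLM-14 ASLAN003 replicate 1 and with each line fitted alone. Without KG-1 DMSO replicate 3 or KG-1 ASLAN003 replicate 3 the cytosolic count was 4 or 5, and without KG-1 DMSO replicate 1 or KG-1 ASLAN003 replicate 1 the mitochondrial count was 5 or 4. After rescaling each library without mitochondrially encoded, small RNA, ribosomal RNA and histone genes, 3 cytosolic genes were lower and 1 (SARS) higher, and 5 mitochondrial genes were lower.

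In MOLM-14, 7 synthetase genes fell after ASLAN003 and 1, WARS, rose. The falls comprised 4 of 20 cytosolic genes (20.0%; GARS, VARS, QARS and FARSA) and 3 of 16 mitochondrial genes (18.8%; WARS2, VARS2 and TARS2). Of all tested genes, 3.33% were called lower and 9.69% higher in this line. The median log2 change was -0.22 over the cytosolic and -0.19 over the mitochondrial genes, against 0.08 over all tested genes. At unadjusted p below 0.05, 8 cytosolic and 4 mitochondrial genes passed, as did 3741 of all 13353 tested genes.

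GARS (ENSG00000106105.13, chromosome 7, 30594681 to 30634033) had the largest fall in MOLM-14. Its level was 77.6, 82.2 and 89.4 FPKM in DMSO and 42.6, 47.4 and 62.7 FPKM after ASLAN003. The groups did not overlap, and the log2 change was -0.71 ± 0.14 (adjusted p = 0.00567). QARS, the most abundant synthetase transcript, went from 320.4, 311 and 299 FPKM to 204, 256 and 233 FPKM, a log2 change of -0.43 ± 0.11 (adjusted p = 0.0187). VARS was at 157, 152 and 144 FPKM in DMSO and 91.4, 126 and 114 FPKM after treatment (-0.46 on the log2 scale, adjusted p = 0.0226). FARSA was at 226, 197 and 189 FPKM in DMSO and 145, 158 and 157 FPKM after treatment (-0.41, adjusted p = 0.0258). For each of these 4 cytosolic genes all treated libraries were below all controls. Over the whole classes this held for 6 of 20 cytosolic and 4 of 16 mitochondrial genes, against 8.17% of all genes. KARS was not called in MOLM-14: its libraries were at 141, 143 and 149 FPKM in DMSO and 98.9, 127 and 136 FPKM after ASLAN003 (-0.27, adjusted p = 0.145). Its treated libraries were nonetheless all below the controls, and its responses in the lines were not called different by the direct test (KG-1 minus MOLM-14 -0.29, adjusted p = 0.292). EPRS was not called either, at 117, 105 and 114 FPKM in DMSO and 60.8, 96.2 and 108 FPKM after treatment (-0.38, adjusted p = 0.156). In both genes replicate 1 was the lowest treated library, and for EPRS replicate 3 lay within the control range.

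Both tryptophanyl enzymes were called in MOLM-14, in opposite directions. WARS, the cytosolic enzyme and a known interferon-inducible gene (ENSG00000140105.17, chromosome 14, 100333788 to 100376805), was at 85.1, 90.0 and 81.9 FPKM in DMSO and 146, 109 and 108 FPKM after ASLAN003. All treated libraries were above all controls, with replicate 1 far above the other treated libraries, and the log2 change was 0.48 ± 0.14 (adjusted p = 0.0406). WARS2, the mitochondrial enzyme (ENSG00000116874.11, chromosome 1, 119031216 to 119140671), went from 8.76, 7.72 and 9.10 FPKM to 4.12, 6.78 and 5.08 FPKM, a log2 change of -0.61 ± 0.18 (adjusted p = 0.0404). Without replicate 1 of the treated group neither passed (WARS 0.34, adjusted p = 0.104; WARS2 -0.47, adjusted p = 0.103). VARS2 was at 26.5, 20.9 and 21.7 FPKM in DMSO and 15.1, 13.3 and 16.6 FPKM after treatment (-0.58 ± 0.15, adjusted p = 0.0223). TARS2 was at 28.4, 25.3 and 24.98 FPKM in DMSO and 20.9, 19.5 and 20.9 FPKM after treatment (-0.34 ± 0.10, adjusted p = 0.0426). Neither gene's groups overlapped.

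**Figure D2:**
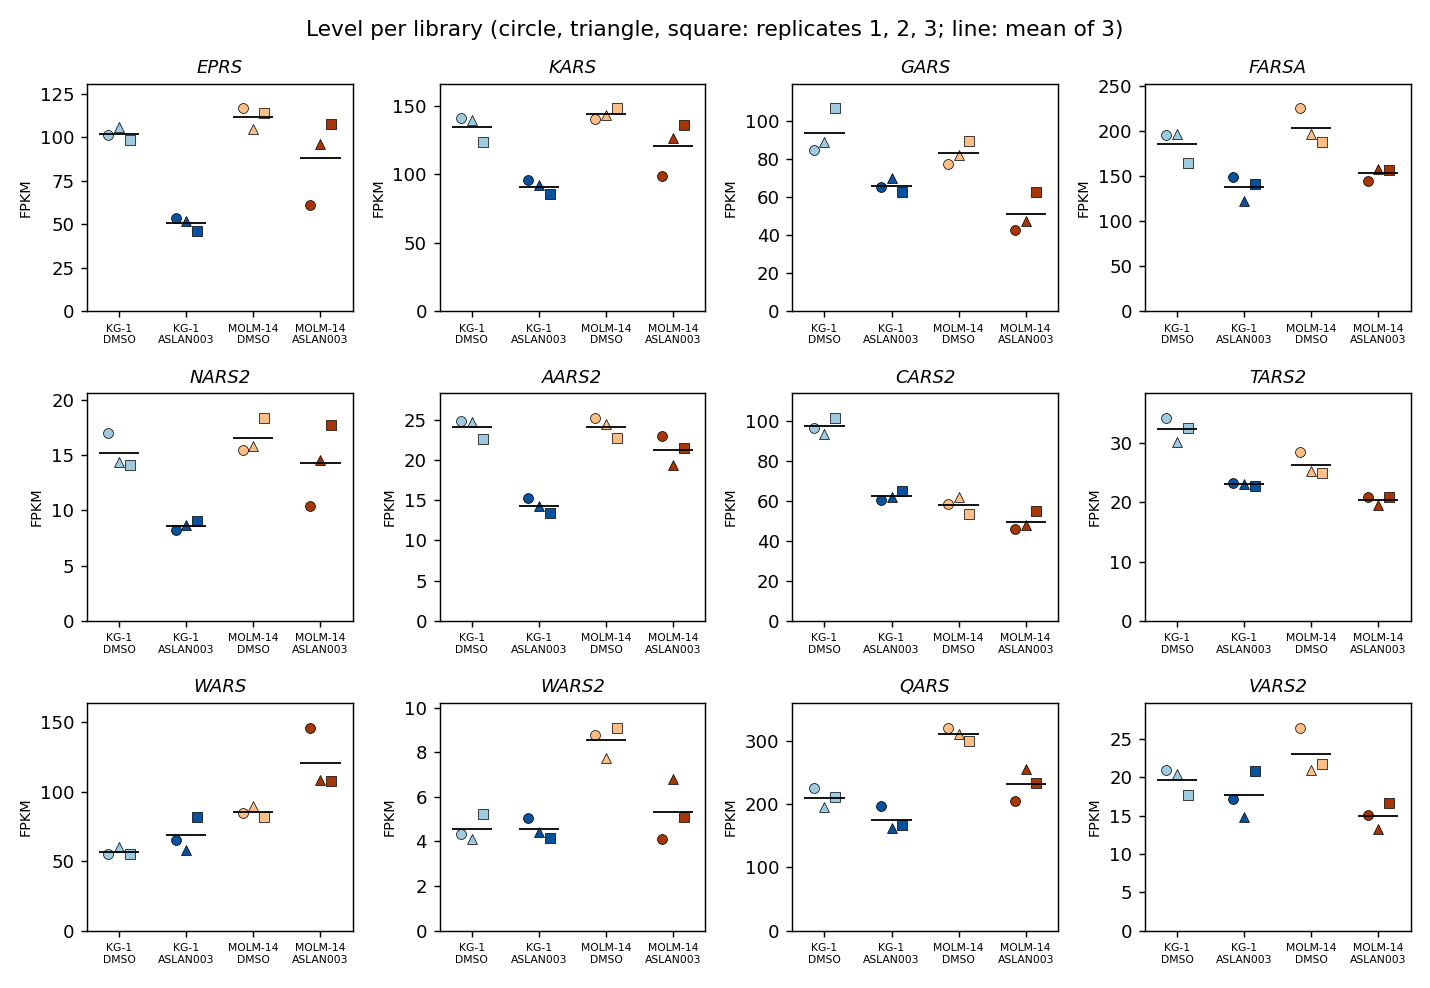
FPKM of 12 synthetase genes in each of the 12 libraries, by group on the x axis; circles, triangles and squares are replicates 1, 2 and 3, and the line is the group mean. In KG-1 the ASLAN003 libraries of EPRS (45.9 to 53.8 FPKM) and CARS2 (60.2 to 65.0 FPKM) lie together below the controls, while in MOLM-14 EPRS spreads from 60.8 to 108 FPKM after treatment.

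The 3 treated MOLM-14 libraries differed in how far the synthetase genes lay below the DMSO mean. The median over the 20 cytosolic genes was -0.42 on the log2 scale in replicate 1, -0.17 in replicate 2 and -0.05 in replicate 3. Over the 16 mitochondrial genes it was -0.25, -0.05 and -0.07. Replicate 1 had 9 cytosolic genes at least 0.5 below the DMSO mean, against 1 in replicate 2 and 0 in replicate 3. It was the lowest library of its group for 22 of the 36 genes, and for 35% of all genes. In KG-1 the 3 treated libraries lay closer together, with cytosolic medians of -0.31, -0.36 and -0.42 and mitochondrial medians of -0.41, -0.36 and -0.29. Without MOLM-14 ASLAN003 replicate 1, 3 cytosolic genes (GARS, QARS and VARS) and 2 mitochondrial genes (TARS2 and VARS2) were called lower in MOLM-14. GARS was also the call kept most often in MOLM-14, lost in 1 of 23 alternatives (each line fitted alone, adjusted p = 0.0627), the setting in which none of the 8 calls was kept. Without MOLM-14 DMSO replicate 1 or 2, 1 cytosolic gene was called lower, and the mitochondrial count fell to 0 or 1.

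**Figure D3:**
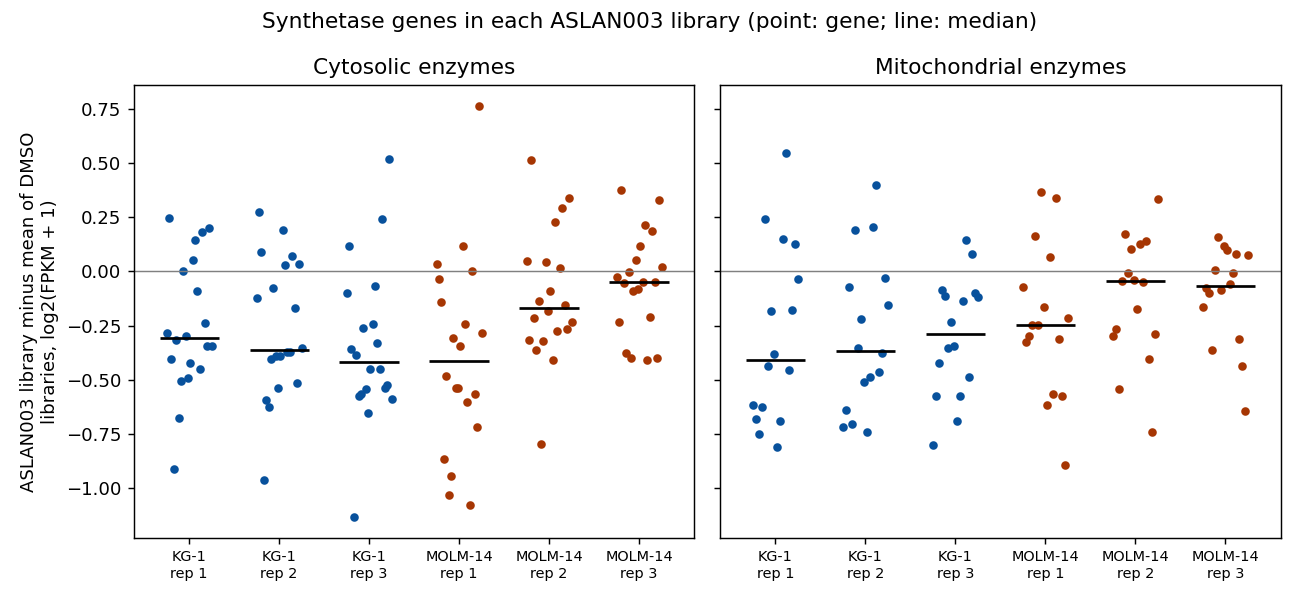
Difference of each ASLAN003 library from the mean of the DMSO libraries of its line, log2(FPKM + 1), for every cytosolic (left) and mitochondrial (right) synthetase gene; points are genes and lines are medians. The cytosolic medians are between -0.42 and -0.31 in all KG-1 libraries but range from -0.42 in replicate 1 to -0.05 in replicate 3 of MOLM-14.

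The genes called lower in both lines were FARSA, GARS, VARS and TARS2, which is 4 of the 17 KG-1 falls and 4 of the 7 MOLM-14 falls. Of all tested genes, 2.23% were called lower in both lines. In MOLM-14 the call was lost in 13 of 23 alternatives for TARS2, 8 for FARSA, 5 for VARS and 1 for GARS, and the replicate block dropped TARS2 and FARSA. A further 15 of the 36 genes were called in neither line. Whether the lines responded differently was tested directly as the KG-1 change minus the MOLM-14 change. AARS2 alone passed, with a difference of -0.53 ± 0.16 on the log2 scale (adjusted p = 0.0493). Of all tested genes, 4.89% had a lower and 5.05% a higher change (9.94% in all) in KG-1 at this threshold. In MOLM-14, AARS2 was at 25.2, 24.5 and 22.7 FPKM in DMSO and 22.9, 19.4 and 21.4 FPKM after ASLAN003, so that those groups overlapped, unlike in KG-1. This call was at the threshold and was lost in 15 of 22 alternatives. None of the 20 cytosolic genes passed. At unadjusted p below 0.05 there were 2 cytosolic and 6 mitochondrial genes, and 3308 of all 13353 tested genes. Without MOLM-14 ASLAN003 replicate 1, 5 cytosolic genes (DARS, EPRS, FARSB, IARS and KARS) and 4 mitochondrial genes (AARS2, CARS2, IARS2 and NARS2) were called, each with the lower change in KG-1. In that fit 8.84% of all tested genes were called in this direction, against 4.89% with all libraries. The difference for EPRS was then -0.87 (adjusted p = 0.0012), against -0.62 ± 0.23 (adjusted p = 0.113) with all libraries.

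In DMSO the lines differed in synthetase levels in the absence of ASLAN003. Of the 20 cytosolic genes, 10 were lower in KG-1 than in MOLM-14 and none was higher (TARS, MARS, CARS, WARS, QARS, SARS, VARS, NARS, LARS and HARS). Of the 16 mitochondrial genes, 6 were higher in KG-1 (RARS2, CARS2, PARS2, IARS2, LARS2 and TARS2) and 4 were lower (EARS2, WARS2, SARS2 and MARS2). Over all tested genes 22.1% were called lower and 27.1% higher in KG-1, 49.2% in all. The libraries of the lines did not overlap in 29.0% of all genes with KG-1 lower and 34.3% with KG-1 higher. The median log2 difference was -0.32 over the cytosolic and 0.05 over the mitochondrial genes, against 0.05 over all tested genes. These controls also enter the treatment comparisons.

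TARS, the cytosolic threonyl enzyme (ENSG00000113407.13, chromosome 5, 33440696 to 33469539), was at 57.6, 58.1 and 71.3 FPKM in KG-1 DMSO and 138, 128 and 132 FPKM in MOLM-14 DMSO. The lines did not overlap, and the log2 difference was -1.08 ± 0.14 (adjusted p = 4.55e-05). RARS2, the mitochondrial arginyl enzyme, was at 34.6, 38.1 and 37.9 FPKM in KG-1 and 17.8, 17.7 and 24.5 FPKM in MOLM-14. This was the opposite direction, with a difference of 0.86 ± 0.17 (adjusted p = 0.00109). CARS2 was at 96.6, 93.7 and 102 FPKM in KG-1 and 58.6, 62.0 and 53.2 FPKM in MOLM-14 (0.74 ± 0.10, adjusted p = 3.99e-05). IARS2 was at 101, 99.5 and 105 FPKM in KG-1 and 65.5, 65.7 and 71.8 FPKM in MOLM-14 (0.59, adjusted p = 0.000473). So the 2 most abundant mitochondrial transcripts were both higher in KG-1. PARS2 was at 7.90, 6.72 and 6.74 FPKM against 3.46, 4.91 and 4.34 FPKM (0.64, adjusted p = 0.00510). EARS2, the mitochondrial glutamyl enzyme, was at 13.7, 12.2 and 13.9 FPKM in KG-1 and 26.8, 24.9 and 25.6 FPKM in MOLM-14. That was the largest mitochondrial difference in favour of MOLM-14, at -0.91 ± 0.17 (adjusted p = 0.000682). WARS2 was at 4.32, 4.13 and 5.22 FPKM in KG-1, below the 7.72 to 9.10 FPKM of MOLM-14 (-0.78, adjusted p = 0.00278). SARS2, the seryl enzyme, was at 29.9, 27.9 and 26.7 FPKM in KG-1 and 53.5, 57.1 and 30.1 FPKM in MOLM-14 (-0.67, adjusted p = 0.0147). Here MOLM-14 replicate 3 lay close to the KG-1 range. Of the 20 calls between the lines, 12 were kept under every alternative, all of these genes except SARS2 among them. The split of the mitochondrial calls was 4 higher and 4 lower after centring each library on its median and 6 higher and 2 lower after the rescaling without mitochondrially encoded and small RNA genes. Without MOLM-14 DMSO replicate 2 it was 4 higher and 2 lower.

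The falls in KG-1 were found among genes with either baseline difference. Of the 17 genes that fell in KG-1, 3 (LARS, MARS2 and VARS) were lower and 4 (CARS2, IARS2, PARS2 and TARS2) higher in KG-1 than in MOLM-14 in DMSO, and the other 10 were not called between the lines. After ASLAN003 the mean CARS2 level in KG-1 was 62.4 ± 2.38 FPKM, near the 57.9 ± 4.41 FPKM of MOLM-14 DMSO. EPRS, which was not called between the lines in DMSO (-0.13, adjusted p = 0.541), was at 50.5 ± 4.09 FPKM in treated KG-1.

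The balance between the compartments was followed as the ratio of cytosolic to mitochondrial FPKM for 16 pairs charging the same amino acid. Both EARS2 and PARS2 were paired with EPRS. These ratios are given without a test, and pairs that share EPRS are not independent. In most pairs the cytosolic transcript was the more abundant, up to a mean ratio of 27.1 ± 6.3 for EPRS/PARS2 in MOLM-14 DMSO. The WARS/WARS2 mean ratio in treated MOLM-14 was 24.3 ± 10.1. The mean ratio was under 1 in 2 of 16 pairs in KG-1 DMSO (CARS/CARS2 and IARS/IARS2), in 3 in treated KG-1 and in 1 in each MOLM-14 group. For cysteine the mitochondrial transcript exceeded the cytosolic one in every library. The CARS/CARS2 ratio was 0.168, 0.156 and 0.190 in KG-1 DMSO and 0.33, 0.327 and 0.279 after ASLAN003, against 0.449, 0.423 and 0.449 in MOLM-14 DMSO. It was higher in all treated than in all control KG-1 libraries, yet still under every MOLM-14 value.

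In KG-1 the treated and control ratios did not overlap in 6 of 16 pairs, 3 higher after ASLAN003 (AARS, CARS and NARS with their partners) and 3 lower (HARS, RARS and VARS). No background share was computed for ratios. For single genes, 31.4% of all tested genes were higher and 24.5% lower without overlap in KG-1. The NARS/NARS2 ratio went from 5.57, 6.2 and 7.92 to 13.3, 11.6 and 10.4, where NARS2 fell and NARS had a fitted log2 value of 0.04. The RARS/RARS2 ratio was 1.43, 1.27 and 1.22 in DMSO and 0.851, 0.869 and 1.04 after treatment. In MOLM-14 the ratios did not overlap in 4 of 16 pairs, higher for AARS, NARS and WARS and lower for HARS. The shares of single genes without overlap in MOLM-14 were 17.7% higher and 8.17% lower. There the WARS/WARS2 ratio was 9.72, 11.7 and 9.0 in DMSO and 35.5, 16.0 and 21.2 after treatment, with replicate 1 the highest. In DMSO the ratio was lower in all KG-1 than in all MOLM-14 libraries for 9 of 16 pairs, and higher for EPRS/EARS2 alone. Of single genes, 29.0% were lower and 34.3% higher in KG-1 without overlap between the lines. The summed level of the 20 cytosolic genes was 1730.3 ± 27.1 FPKM in KG-1 DMSO and 1391.9 ± 54.2 FPKM after ASLAN003. For the 16 mitochondrial genes the sums were 468 ± 8.95 and 377 ± 5.48 FPKM. In MOLM-14 they were 2151.0 ± 58.8 and 1887.0 ± 187 FPKM for the cytosolic genes and 404 ± 14.7 and 372 ± 17.3 FPKM for the mitochondrial genes. The listed FPKM total was itself not constant between groups. As a share of that total, the cytosolic genes made up 0.226% ± 0.00297 in KG-1 DMSO and 0.204% ± 0.00974 after ASLAN003, and the mitochondrial genes 0.0610% ± 0.000689 and 0.0552% ± 0.00149. In MOLM-14 the shares were 0.256% ± 0.00929 and 0.244% ± 0.0181 for the cytosolic genes. For the mitochondrial genes they were 0.0482% ± 0.00199 and 0.0483% ± 0.00236, closer than their spread.

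**Figure D4:**
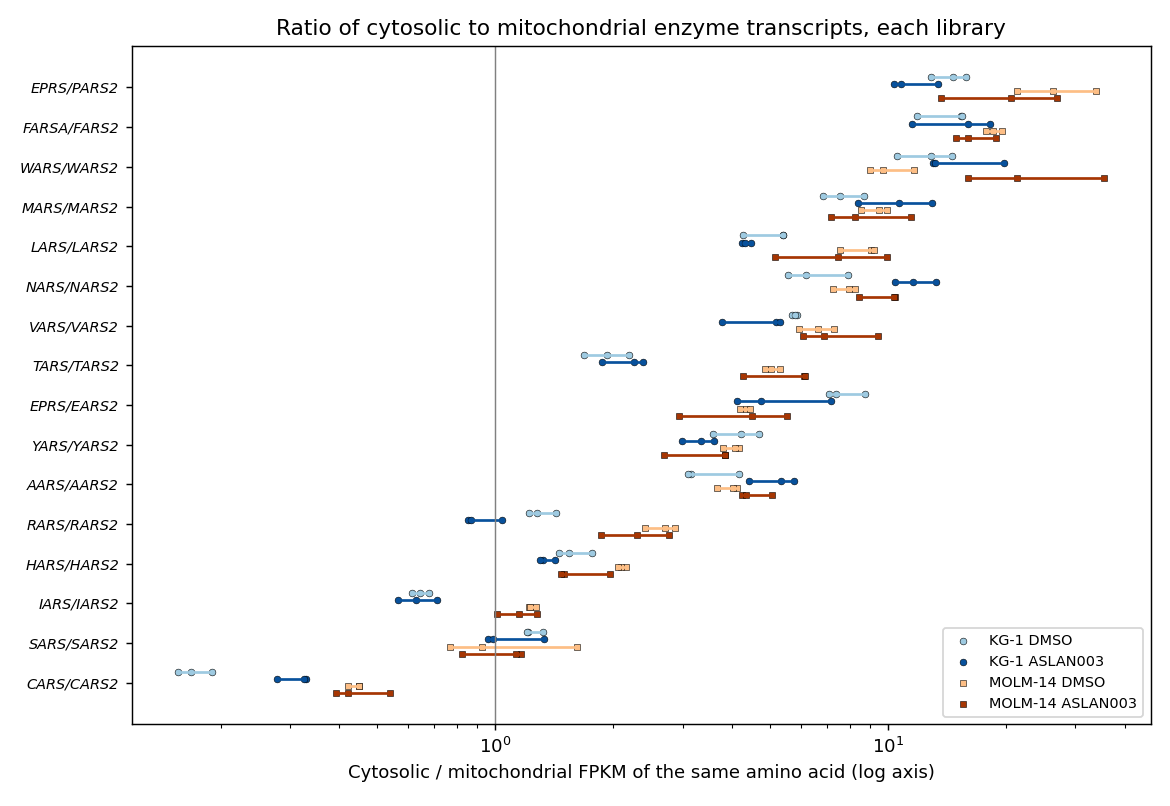
Ratio of cytosolic to mitochondrial FPKM for 16 enzyme pairs on a log axis; each point is a library, each line spans the 3 libraries of a group, and the vertical line marks a ratio of 1. CARS/CARS2 lies left of 1 in every library, and its KG-1 points move from 0.156 to 0.190 in DMSO to 0.279 to 0.33 after ASLAN003.

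Related genes were followed in the same fit. TARSL2, a synthetase-like gene outside the list of 36, was not called in either line. Of 11 charging partners, which are complex scaffolds, amidotransferase subunits and tRNA editing or selenocysteine factors, 2 fell and 0 rose in KG-1 (14.3% and 19.4% of all tested genes). The share called lower was near that background. The 2 called genes were DTD1, a D-aminoacyl-tRNA deacylase (-0.92, adjusted p = 0.000146), and the scaffold AIMP2 (-0.49, adjusted p = 0.0419). Without overlap of the KG-1 libraries, 5 of the 11 were lower (45.5%) and 1 higher, against 24.5% and 31.4% of all genes. In MOLM-14 limma called 0 of 11, with 2 at unadjusted p below 0.05, as were 3741 of all 13353 tested genes. Of 27 genes for tRNA maturation and export, 5 fell and 1 rose in KG-1, again beside 14.3% and 19.4% of all genes. The called falls were thus near the background. Among them were RPP25 (-0.72) and POP5 (-0.40), subunits of the ribonuclease P and MRP complexes that trim the 5′ end of tRNAs and process ribosomal RNA, XPOT, the tRNA exporter (-0.59), and HSD17B10, a subunit of mitochondrial ribonuclease P (-0.34). The gene that rose was NSUN2, a tRNA methyltransferase (0.28, adjusted p = 0.0486). Without overlap of the KG-1 libraries, 15 of the 27 were lower (55.6%) and 2 higher, against 24.5% and 31.4% of all genes. In MOLM-14, 1 of the 27 fell (HSD17B10, -0.42) and 1 rose (TRNT1, which adds the CCA end, 0.54). Beside 3.33% and 9.69% of all genes, this is no excess of calls in either direction. Without overlap of the MOLM-14 libraries, 4 of the 27 were lower (14.8%) and 3 higher, against 8.17% and 17.7% of all genes.

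Among 6 genes of the amino acid response, 3 fell and 1 rose in KG-1, where 14.3% and 19.4% of all genes did. In MOLM-14, where 3.33% of all genes fell and 9.69% rose, limma called 0 of the 6. At unadjusted p below 0.05 there were 2, and 3741 of all 13353 tested genes. ATF4 itself was at 260.1, 239 and 334 FPKM in KG-1 DMSO and 169.8, 169 and 145 FPKM after ASLAN003. All treated libraries were below all controls, with a log2 change of -0.77 ± 0.14 (adjusted p = 0.000923). In MOLM-14, ATF4 was at 314, 318 and 315 FPKM in DMSO and 196, 264 and 260.1 FPKM after treatment (-0.41 ± 0.14, adjusted p = 0.0710). CHAC1, a glutathione-degrading enzyme, and ASNS, asparagine synthetase, also fell in KG-1 (-1.24 and -0.62, adjusted p = 0.0163 and 0.0491). CHAC1 was low, at 2.99 ± 2.43 FPKM (SD) in KG-1 DMSO and 0.513 ± 0.312 FPKM after ASLAN003. For ATF4, CHAC1 and ASNS, replicate 3 was the highest KG-1 DMSO library. TRIB3, a pseudokinase induced by ATF4, went the other way in KG-1. Its level was 33.4, 27.4 and 28.9 FPKM in DMSO and 88.5, 92.1 and 85.9 FPKM after ASLAN003 (1.54 ± 0.16, adjusted p = 1.29e-05). In MOLM-14 its fitted log2 value was -0.26 (adjusted p = 0.310).

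Some of these values may include fragments of other genes. Exons of 13 of the 36 synthetase genes overlap those of another listed gene in the annotation used here, 2 of them on the same strand (HARS2 with ZMAT2 and VARS2 with GTF2H4). Among the genes called after treatment, CARS2, GARS, KARS, WARS, WARS2 and YARS overlap a gene on the opposite strand. HARS and HARS2, whose ratio was given above, overlap each other on opposite strands, and HARS also overlaps WDR55. The library kit keeps strand, but no source used here says whether the counting used it, so these levels and that ratio are uncertain.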

How the data were processed

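RNA from KG-1 and MOLM-14 cells was sequenced as 12 libraries prepared with a stranded total RNA kit, per the labels' protocols. The submitters' processing notes name bcl2fastq 2.17.1.14, STAR 2.4.2a, RSEM 1.2.25 and the build hg38 (GRCh38), and no source used here names the annotation. The authors deposited log2(FPKM + 1), 1 log2 value for each gene in each library. These values are not counts, so no count model was used.

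Group means were fitted over all 12 libraries with limma 3.58.1 (R 4.3.3; moderated with a trend and robust estimation) on log2(FPKM + 1), for 13353 genes with at least 1 FPKM in 3 or more libraries. Fold changes are on that scale, with a pseudocount of 1, which understates changes of low genes. P-values were adjusted by the Benjamini-Hochberg method over all tested genes and called at 0.05. The fit was tested on simulated data. Per-library FPKM is the deposited value with the log undone.

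Depth was estimated from the steps between low FPKM values: with it, 76.8% to 82.9% of 89 to 155 low values per library came within 0.15 fragments of a whole number, against 30% for uniform values. Gene positions come from GENCODE 29 (13784 of 13881 identifiers found, 99.3%), and promoters from RefSeq.

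The members and the gene lists were chosen with earlier results of these data known, and no p-value was computed for a list. Per-library values were given for the 6 largest called changes per direction and line, the 3 largest called line-by-treatment differences and the 4 largest called DMSO differences per direction, GARS, KARS and ATF4; FARSA in KG-1, TARS2, EPRS in MOLM-14 and TRIB3 were added after their values were seen. From other lists, up to 4 called genes per line were named. Alternatives changed the pseudocount, filter, scaling, variance model, library weights, replicate block and the libraries included.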

Additional observations from a re-analysis of the deposited data

Results flagged for a closer look

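The responses of the lines differed, by the line-by-treatment term of limma, in 4 of the 82 genes examined (4.88%), against 9.94% of all tested genes. For TRIB3 the KG-1 change minus the MOLM-14 change was 1.81 on the log2 scale (adjusted p = 0.000582): its mean went from 29.9 to 88.8 FPKM in KG-1 and from 14.7 to 12.1 FPKM in MOLM-14. The difference for DTD1 was -0.79 (adjusted p = 0.0170), with means of 25.2 and 12.9 FPKM in KG-1 and 31.8 and 29.1 FPKM in MOLM-14. RPP25 differed by -0.73 (adjusted p = 0.0308), with means of 16.9 and 9.85 FPKM in KG-1 and 15.3 and 15.5 FPKM in MOLM-14. The only synthetase gene was AARS2, at -0.53 (adjusted p = 0.0493), with means of 24.1 and 14.3 FPKM in KG-1 and 24.2 and 21.3 FPKM in MOLM-14. In all 4 genes the KG-1 libraries of the treatments did not overlap, with ASLAN003 higher for TRIB3 and lower for AARS2, RPP25 and DTD1. Over all tested genes, 31.4% were higher and 24.5% lower without overlap in KG-1.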

How the results depend on the processing

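No call for a synthetase gene changed sign under any alternative tried, and where calls were lost the cause was not tested. The medians of both classes in the treatment comparisons stayed below 0 under every scaling. Relative to the median of all tested genes, which moved from 0.05 to between -0.07 and 0.18 in KG-1 and from 0.08 to between -0.07 and 0.19 in MOLM-14, the cytosolic median lay between -0.41 and -0.35 in KG-1. Rescaling without mitochondrially encoded, small RNA, ribosomal RNA and histone genes gave in KG-1 4 cytosolic calls (median -0.214, from -0.362) and 5 mitochondrial calls (median -0.254, from -0.398). It gave in MOLM-14 3 cytosolic calls (2 lower, 1 higher) and 0 mitochondrial calls (median -0.0645), and in DMSO 6 cytosolic calls (median -0.173) and a mitochondrial median of 0.189. Centring on the median gave -0.519 for the KG-1 and -0.341 for the MOLM-14 mitochondrial median, with 6 cytosolic genes lower and 0 higher in MOLM-14, and turned the mitochondrial median between the lines to -0.00668. Quantile normalization gave -0.306 for the MOLM-14 mitochondrial median. In MOLM-14 the cytosolic count of 5 became 3 without trend and robust estimation, 1 with weighted libraries and 0 with each line fitted alone. The mitochondrial count of 3 became 0 with weighted libraries (median -0.0638) and 0 with each line fitted alone. The line-by-treatment calls (0 cytosolic, 1 mitochondrial) became 1 and 3 with weighted libraries, and the mitochondrial call was 0 after centring and after either rescaling.

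Leaving out 1 library at a time gave 4 to 12 cytosolic and 4 to 8 mitochondrial calls in KG-1 (medians -0.384 to -0.287 and -0.418 to -0.3). In MOLM-14 it gave 1 to 6 and 0 to 3 (medians -0.287 to -0.104 and -0.192 to -0.0314). Line-by-treatment counts were 0 to 5 and 0 to 4 (medians -0.182 to 0.00461 and -0.254 to -0.167), and between the DMSO groups 7 to 11 and 6 to 10 (medians -0.319 to -0.276 and 0.0242 to 0.0900). The highest line-by-treatment counts came without MOLM-14 ASLAN003 replicate 1.

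Deviations of same-numbered libraries correlated at 0.0407, 0.0197 and 0.0318 in KG-1 and 0.1, -0.00191 and 0.0401 in MOLM-14. Those of differently numbered libraries correlated at -0.0699 to 0.0306 in KG-1 and -0.0826 to 0.0491 in MOLM-14. With so few libraries these values cannot tell whether the replicate numbers pair them. With the replicate block, 8 cytosolic and 8 mitochondrial genes were called in KG-1, 3 and 1 in MOLM-14, 0 and 0 for the line-by-treatment difference, and 8 and 8 between the DMSO groups.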
